A study of Mus musculus with 36 samples.

Results

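The genes described here are 8 members of the interleukin-6 (IL-6) family and its signalling chain, taken by symbol from the expression tables of cultured mouse microglia and astrocytes. They are the ligands Il6, Lif and Osm, the receptor chains Il6ra, Osmr and Il6st, the transcription factor Stat3 and the inhibitor Socs3. All 8 were listed in both tables, among 15385 genes in microglia and 14551 genes in astrocytes. The cells came from brains of C57BL/6 mice aged 2 to 4 days, which were pooled and kept as mixed glia for 12 days. Microglia were then taken by selection for CD11b, and astrocytes from the cells left behind, so each group is a culture from pooled newborn brains and not a tissue. Every culture was treated for 4 h. Microglia received vehicle (DMSO), Nec-1s, TNF plus 5z-7, which inhibits the kinase TAK1 (T/5z), TNF plus a Smac mimetic and the caspase inhibitor zVAD (T/S/Z), or 1 of the stimuli with Nec-1s added (T/5z/N, T/S/Z/N), with 4 libraries for each treatment. Astrocytes were given vehicle, Nec-1s, T/S/Z, and T/S/Z plus Nec-1s, with 3 libraries for each. Nec-1s inhibits the kinase of RIPK1, and the comparisons ask which part of each response changed when it was added. The study reported that both stimuli caused death of microglia, which Nec-1s attenuated. In astrocytes it reported no loss of viability that depended on the kinase. The part of cell death in the values given here was not tested. Ripk1 itself was present throughout, at log2 values of 4.81 to 5.25 in microglia and 4.20 to 4.69 in astrocytes.

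IL-6, leukemia inhibitory factor (LIF) and oncostatin M (OSM) are secreted cytokines that share the signalling chain gp130, encoded by Il6st. IL-6 first binds its own receptor chain, encoded by Il6ra, whereas OSM in the mouse signals mainly through a pair of gp130 with the chain encoded by Osmr. The paired receptors activate JAK kinases, which phosphorylate STAT3, and STAT3 induces Socs3, whose product binds gp130 and JAK and limits the signal. In brain, these cytokines are released by activated glia and act on astrocytes through STAT3.

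The promoters of Il6, Lif and Socs3 are shown because Il6 and Lif moved together in both cell types and Socs3 did not move with them in astrocytes. Each line gives 250 bases upstream of the RefSeq start in GRCm38.p6, 5′ to 3′ on the strand of the gene, at chr5:30012864-30013113 (plus strand) for Il6, chr11:4257318-4257567 (plus strand) for Lif and chr11:117969367-117969616 (minus strand) for Socs3. Capitals mark matches, on either strand, to the NF-kB decamer, the AP-1 motif TGANTCA, the C/EBP motif TTGCNNAA or the STAT motif TTCNNNGAA.
Il6: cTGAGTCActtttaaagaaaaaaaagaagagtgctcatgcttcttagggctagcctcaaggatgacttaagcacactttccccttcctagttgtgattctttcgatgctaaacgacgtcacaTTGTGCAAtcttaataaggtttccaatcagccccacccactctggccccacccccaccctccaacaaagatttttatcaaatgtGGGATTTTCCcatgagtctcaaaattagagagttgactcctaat
Lif: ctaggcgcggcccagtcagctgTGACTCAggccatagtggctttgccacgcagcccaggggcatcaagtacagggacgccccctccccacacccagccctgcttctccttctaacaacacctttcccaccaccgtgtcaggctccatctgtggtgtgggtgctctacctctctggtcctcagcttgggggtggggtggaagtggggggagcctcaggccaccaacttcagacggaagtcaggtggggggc
Socs3: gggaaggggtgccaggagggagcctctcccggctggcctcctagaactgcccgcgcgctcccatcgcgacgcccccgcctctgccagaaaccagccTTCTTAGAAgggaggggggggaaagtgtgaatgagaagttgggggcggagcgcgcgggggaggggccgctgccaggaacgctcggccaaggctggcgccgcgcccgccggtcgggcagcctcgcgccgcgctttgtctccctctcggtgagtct
The Il6 window held an AP-1 match, TGAGTCA, a C/EBP match, TTGTGCAA, and the NF-kB decamer GGGATTTTCC at 44 to 35 bases before the start. The Lif window held 1 AP-1 match, TGACTCA, and the Socs3 window 1 STAT match, TTCTTAGAA. No matches overlapped. Among 32851 promoter windows of this length, 3.9% held the NF-kB decamer, 6.75% the AP-1 motif, 9.56% the C/EBP motif and 7.02% the STAT motif. The windows of Osmr, Il6st, Il6ra and Stat3 held none of these letters. A match is a description of the sequence and not a measured site.

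In the deposited annotation, with coordinates of GRCm38, Il6 (ENSMUSG00000025746) lies at chr5:30013114-30019981. Osm (ENSMUSG00000058755) and Lif (ENSMUSG00000034394) are neighbours on the plus strand of chromosome 11, at chr11:4236420-4241026 and chr11:4257557-4272514, with 16531 bases between them. Socs3 (ENSMUSG00000053113) starts its span at chr11:117966079, and Stat3 (ENSMUSG00000004040) lies at chr11:100885098-100939540, both on the minus strand. Osmr (ENSMUSG00000022146) lies at chr15:6813577-6874969, Il6st (ENSMUSG00000021756) at chr13:112464070-112510086 and Il6ra (ENSMUSG00000027947) at chr3:89864059-89913196. Values are for whole genes, summed over exons. The annotation marks Il6ra and Stat3 as confounded in both tables, a mark it does not define and which is read here as overlap with another gene, so reads of a neighbour could enter their values.

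All values are log2(FPKM + 1), where FPKM is fragments per kilobase of exon, scaled to the depth of the library. In microglia the deposited values of replicates 1 to 3 had been shifted gene by gene so that their mean over the 6 treatments equalled that of replicate 4, and genes near 0 therefore carry negative values in those replicates. Replicate 4 was the reference of that shift, and its own difference is given beside each called difference from which it departs by more than 1.5 times. Low values fell in steps, which put the depth near 18.3 to 25.4 M counted units in the 6 microglial libraries of replicate 4 and near 21.2 to 22.4 M in the 12 astrocyte libraries, and the depth of the other microglial libraries is unknown. No 2 libraries held identical values. The labels do not say how the replicates of this experiment relate to cultures or litters. The study's general statement on statistics counts cells from separate litters as biological replicates. The p-values rest on the spread left between these libraries after replicate number is taken out as a block, moderated across genes. In microglia the shift had already removed differences between replicate means.

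Markers of both cell types were as labelled. In DMSO microglia the 10 microglial markers summed to 5916 to 6649 FPKM and the 9 astrocyte markers to 7.17 to 9.14 FPKM. In DMSO astrocytes the 9 astrocyte markers summed to 3257 to 3322 FPKM and the 10 microglial markers to 78.3 to 84.0 FPKM. Sums of other cell types moved too. Endothelial markers (4 of 5 listed in microglia, 3 of 5 in astrocytes) went from 7.64 to 9.47 FPKM in DMSO microglia to 5.27 to 6.18 in T/5z and 3.41 to 3.97 in T/S/Z, and from 17.6 to 19.5 in DMSO astrocytes to 6.46 to 7.18 in T/S/Z and 12.4 to 15.1 in T/S/Z/N. Oligodendrocyte lineage markers (7 of 8) went from 100.2 to 117 FPKM in DMSO astrocytes to 60.3 to 86.9 in T/S/Z and 67.9 to 71.9 in T/S/Z/N. Their part in the members' values was not tested, and the sums of astrocyte, microglial and fibroblast markers are given beside the members.

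Il6 was close to the limit of detection in unstimulated microglia and rose with both stimuli. In replicates 1 to 4 of DMSO, Il6 was at log2 values of -0.88, -0.60, -0.12 and 0.10. It reached 2.61, 2.52, 1.78 and 1.47 with T/5z and 2.99, 2.95, 1.95 and 2.12 with T/S/Z. Every stimulated library lay above every DMSO library, and the stimulated groups overlapped each other. The difference from DMSO was 2.47 ± 0.34 (SE, limma, adjusted p = 0.00067) on the log2 scale for T/5z and 2.87 ± 0.32 (adjusted p = 0.000108) for T/S/Z, in 4 of 4 pairs each. In replicate 4 the T/5z difference was smaller, at 1.37. There, Il6 stood at 0.0732 FPKM in DMSO, about 3.7 counted units, against 1.77 FPKM and 100.4 units with T/5z and 3.33 FPKM and 170 units with T/S/Z.

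With Nec-1s, Il6 differed from DMSO by 0.14 (95% interval -0.15 to 0.43) after T/5z, and by more after T/S/Z. It was at -0.43, -0.51, 0.01 and 0.00 in T/5z/N, with replicate 4 listed at 0, and at 0.75, 0.56, 0.34 and 0.33 in T/S/Z/N. Nec-1s lowered Il6 by a log2 difference of -2.33 ± 0.26 (SE, adjusted p = 0.000239) after T/5z, where replicate 4 gave -1.47, and -2.0 ± 0.14 (adjusted p = 2.52e-05) after T/S/Z. T/S/Z/N stayed above DMSO by 0.87 ± 0.22 (adjusted p = 0.0145). That last call did not hold when replicate 2 was left out (0.77, adjusted p = 0.0518), and in replicate 4 the difference was 0.23.

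Lif followed Il6. Its DMSO values were -0.33, -0.33, 0.20 and 0.45, its T/5z values 2.64, 2.87, 2.06 and 1.38, and its T/S/Z values 3.74, 3.44, 2.96 and 3.40. No T/5z library reached the lowest T/S/Z library. Lif rose by 2.24 ± 0.35 (SE, adjusted p = 0.00127) with T/5z and by 3.39 ± 0.21 (adjusted p = 5.54e-06) with T/S/Z, and T/S/Z exceeded T/5z by 1.15 ± 0.21 (adjusted p = 0.00481), or by 2.02 in replicate 4. In replicate 4 the rise with T/5z was 0.94, and Lif went from 0.364 FPKM in DMSO to 1.61 (T/5z) and 9.58 (T/S/Z).

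Nec-1s took Lif back to -0.18, -0.39, 0.21 and 0.28 in T/5z/N and to 0.96, 0.96, 0.71 and 0.49 in T/S/Z/N. The T/5z/N values overlapped those of DMSO, with a difference of -0.02 (95% interval -0.26 to 0.23), whereas each T/S/Z/N value lay above all 4 DMSO values. The effects of Nec-1s were -2.26 ± 0.30 (SE, adjusted p = 0.000582) after T/5z and -2.61 ± 0.11 (adjusted p = 3.71e-06) after T/S/Z, and replicate 4 gave -1.10 after T/5z. T/S/Z/N exceeded DMSO by 0.78 ± 0.21 (adjusted p = 0.0185), a call lost without replicate 1 (0.61, adjusted p = 0.0553) or replicate 2 (0.61, adjusted p = 0.068), and the difference was 0.04 in replicate 4.

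Astrocyte markers were also higher in the stimulated microglial libraries and lower with Nec-1s. Their sum over 9 of 9 markers was 12.1 to 22.2 FPKM in T/5z, 13.7 to 19.9 in T/S/Z, 8.15 to 8.95 in T/5z/N and 4.88 to 6.02 in T/S/Z/N, where Sox9 and S100b had values just under 0, counted as 0, in some of replicates 1 to 3. The sum over 6 of 6 fibroblast and pericyte markers was 6.66 to 9.10 in DMSO, 12.7 to 21.7 in T/5z, 7.27 to 9.20 in T/5z/N, 5.08 to 8.33 in T/S/Z and 3.70 to 5.80 in T/S/Z/N. In bulk RNA, a change in the number of cells of a type and a change in RNA per cell cannot be told apart. Set against the astrocyte table, which was normalized separately, the 9 markers stood in T/S/Z microglia at 0.311% to 2.88% of their level in T/S/Z astrocytes, Lif at 6.90% and Il6 at 36.5%. The part of other cells in the values of Il6 and Lif was not tested for either stimulus.

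Osm moved in opposite directions from DMSO under the stimuli. It was already present in DMSO microglia, at 3.47, 3.68, 3.46 and 3.49. With T/5z it was lower in all 4 libraries, at 2.70, 2.58, 2.81 and 2.48, and with T/S/Z it was higher in all 4, at 6.59, 6.64, 7.11 and 7.62. The 3 groups did not overlap. Osm fell by 0.88 on the log2 scale with T/5z (difference -0.88 ± 0.09 SE, adjusted p = 0.000124) and rose by 3.47 ± 0.17 (adjusted p = 1.92e-06) with T/S/Z, so that T/S/Z exceeded T/5z by 4.35 ± 0.19 (adjusted p = 1.11e-05). In FPKM, replicate 4 went from 10.2 in DMSO to 4.57 (T/5z) and 196 (T/S/Z).

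Nec-1s removed the whole T/S/Z rise of Osm and more. T/S/Z/N gave 2.80, 2.73, 2.44 and 2.28, below every DMSO library. The change from T/S/Z was -4.43 ± 0.23 (SE, adjusted p = 8.16e-06) and T/S/Z/N lay under DMSO by -0.96 ± 0.09 (adjusted p = 0.000115). T/5z/N was also under DMSO, at 2.39, 2.24, 2.29 and 2.15, a difference of -1.25 ± 0.08 (adjusted p = 6.78e-06), and it differed from T/5z by -0.37 ± 0.06 (adjusted p = 0.00196), less than the 1.5-fold minimum for a call. With the kinase inhibited, the level of Osm was below vehicle under both stimuli, and the groups given a stimulus plus Nec-1s differed by 0.29 ± 0.08 (adjusted p = 0.0256), again less than 1.5-fold.

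Il6ra, the chain that binds IL-6, fell in microglia with both stimuli. It was at 4.91, 4.70, 4.43 and 4.57 in DMSO, at 1.84, 1.99, 1.80 and 1.97 with T/5z and at 2.35, 2.18, 2.53 and 2.52 with T/S/Z. All stimulated libraries were below all DMSO libraries, and the T/5z group was below the T/S/Z group without overlap. Il6ra fell by 2.75 on the log2 scale with T/5z (-2.75 ± 0.09 SE, adjusted p = 9.1e-07) and by 2.26 with T/S/Z (-2.26 ± 0.12, adjusted p = 2.37e-06). In replicate 4 these were falls from 22.8 FPKM to 2.91 and 4.72 FPKM.

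Nec-1s raised Il6ra only part of the way. T/5z/N reached 2.94, 3.04, 3.08 and 2.85 and T/S/Z/N reached 2.64, 2.84, 3.16 and 2.88, all below the lowest DMSO library. The effect of Nec-1s was 1.08 ± 0.07 (SE, adjusted p = 1.87e-05) after T/5z and 0.49 ± 0.08 (adjusted p = 0.00149) after T/S/Z, where it was under the 1.5-fold minimum. Under Nec-1s, Il6ra remained lower than DMSO by -1.67 ± 0.09 (adjusted p = 4.42e-06) and -1.77 ± 0.14 (adjusted p = 4.73e-05).

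Il6st, the shared gp130 chain, was called in no microglial comparison. Its DMSO values ran from 3.85 to 4.06, and its highest group mean, 4.33 ± 0.07 (SD, n = 4) in T/5z/N, was above DMSO by 0.38 ± 0.05 (SE, adjusted p = 0.000575), less than 1.5-fold. Osmr was too low in microglia to pass the filter on low values. It was at 0.16, 0.04, 0.28 and 0.41 in DMSO, at 1.27, 1.39, 0.96 and 0.66 with T/5z and at 1.05, 0.85, 0.69 and 0.97 with T/S/Z, and all stimulated libraries exceeded all DMSO libraries. In a fit of all 15385 genes without the filter, the difference from DMSO was 0.85 (adjusted p = 0.00999) with T/5z and 0.67 (adjusted p = 0.00113) with T/S/Z, and Nec-1s changed it by -0.76 (adjusted p = 0.0168) and -0.65 (adjusted p = 0.00187). In replicate 4 the Osmr rise under T/5z was smaller, at 0.25, and the Nec-1s change there was -0.25, both under the 1.5-fold minimum. For T/S/Z, replicate 4 gave a rise of 0.56, also under that minimum, and a Nec-1s change of -0.75. In T/S/Z microglia Osmr stood at 1.20% of its astrocyte level, within the range of the 9 astrocyte markers given above, and the part of astrocyte RNA in it was not tested.

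Socs3, the feedback inhibitor, had the largest log2(FPKM + 1) difference of the 8 members in both stimuli, a scale that understates the change of Il6 and Lif, which were near 0 in DMSO. It was at 2.33, 2.40, 2.06 and 1.82 in DMSO, at 5.89, 5.91, 5.80 and 5.98 with T/5z and at 6.67, 6.76, 6.92 and 6.80 with T/S/Z. The 3 groups did not overlap. Socs3 rose by 3.75 ± 0.11 (SE, adjusted p = 7.04e-07) and 4.64 ± 0.12 (adjusted p = 1.13e-07), from 2.52 FPKM in DMSO to 62.3 and 110 FPKM in replicate 4. T/S/Z exceeded T/5z by 0.89 ± 0.07 (adjusted p = 7.71e-05).

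Much of the Socs3 rise was kept under Nec-1s, above all after T/S/Z. T/5z/N gave 3.95, 4.03, 4.28 and 4.45 and T/S/Z/N gave 5.85, 5.84, 6.19 and 6.22, all above DMSO. Nec-1s changed Socs3 by -1.72 ± 0.08 (SE, adjusted p = 2.67e-06) after T/5z and by -0.76 ± 0.06 (adjusted p = 5.31e-05) after T/S/Z. The latter was under the fold minimum with quantile normalization (-0.56) and in replicate 4 alone (-0.57). Socs3 stayed above DMSO by 2.03 ± 0.16 (adjusted p = 2.86e-05) in T/5z/N and by 3.88 ± 0.16 (adjusted p = 2.14e-06) in T/S/Z/N, and T/S/Z/N exceeded T/5z/N by 1.85 ± 0.04 (adjusted p = 1.36e-07).

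Stat3 was nearly level in microglia and was called in no comparison. It was at 5.19, 5.17, 5.01 and 5.18 in DMSO, at 4.85 to 4.89 in T/5z and at 4.76 to 4.84 in T/S/Z/N. The T/5z and T/S/Z/N groups lay below DMSO without overlap, by -0.27 ± 0.05 (SE, adjusted p = 0.00426) and -0.35 ± 0.06 (adjusted p = 0.00301), both under the 1.5-fold minimum.

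**Figure D1:**
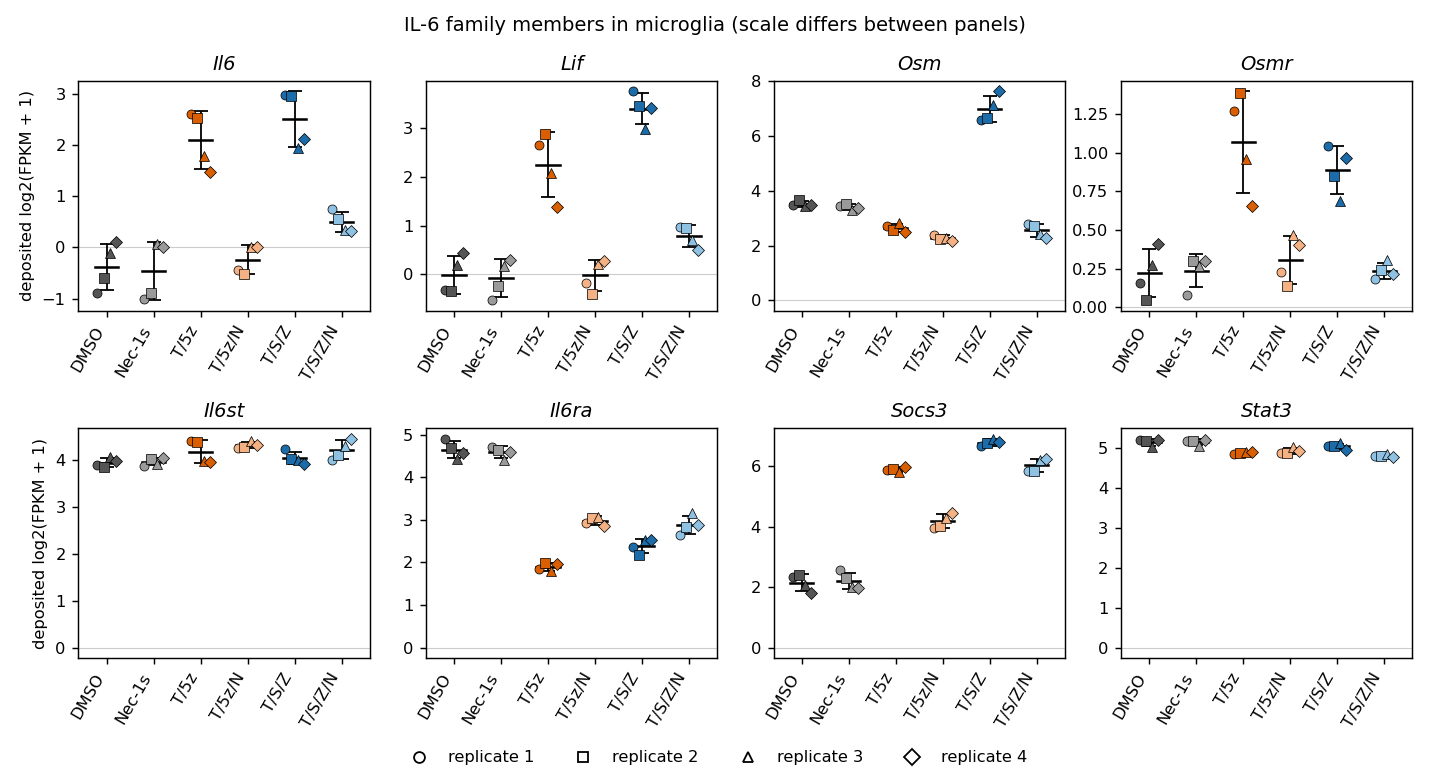
Deposited log2(FPKM + 1) of the 8 members in microglia by treatment, 1 point for each of 24 libraries, with the group mean (long bar) and SD (error bar, n = 4). Osm fell with T/5z and rose with T/S/Z, Socs3 stayed high in T/S/Z/N, and Il6 and Lif were near 0 without a stimulus.

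By count, a gene was called when its fold change exceeded 1.5 and its adjusted p was under 0.05. With T/5z, 5 of the 7 tested members were called (24.4% of all 10524 tested genes), 3 higher (11.1% of all genes) and 2 lower (13.3%). For T/S/Z, 5 of 7 were called (29.6%), 4 higher (12.2%) and 1 lower (17.5%). Nec-1s changed 4 of 7 after T/5z (7.16%), 1 higher (2.64%) and 3 lower (4.52%). After T/S/Z it changed 4 of 7 (12.1%), none higher (5.35%) and 4 lower (6.72%).

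Relative to DMSO, 3 of 7 were called in T/5z/N (12.8%), 1 higher (6.16%) and 2 lower (6.69%). In T/S/Z/N 5 of 7 were called (14.1%), 3 higher (6.20%) and 2 lower (7.87%), and this count was 3 without replicate 2, with 5 added before the log, or in replicate 4 by fold alone. T/S/Z against T/5z called Osm, Lif and Socs3 of the 7 (9.83%), all 3 higher (5.42%) and none lower (4.42%). T/S/Z/N against T/5z/N called Socs3, Lif and Il6 (3.38%), all 3 higher (1.80%) and none lower (1.59%), of which Socs3 alone was called without replicate 1, without replicate 2 or with 5 added before the log. In replicate 4 the difference was 0.33 for Il6 and 0.21 for Lif, against fitted values of 0.73 and 0.80. All comparisons with DMSO share the same 4 vehicle libraries.

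Nec-1s alone left the members near vehicle. By limma, 0 of 7 were called in microglia (0% of all genes), and Osm alone had an unadjusted p under 0.05, with a difference of -0.11 ± 0.05 (SE, adjusted p = 0.585). In astrocytes 0 of 8 were called (0.0144% of all genes), and none had an unadjusted p under 0.05.

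The share of the stimulus difference that Nec-1s took back, on the log2 scale, differed between the members. These are not shares of FPKM, and they depend on the level of the gene. After T/5z it was 101% for Lif (94.9% to 118% over 4 pairs), 94.4% for Il6 (87.2% to 107%), 45.9% for Socs3 (36.9% to 54.4%) and 39.1% for Il6ra (34.0% to 48.6%). Osm, at -0.37 with Nec-1s after its fall with T/5z, had -42.3% (-80.2% to -30.8%). After T/S/Z it was 128% for Osm (122% to 132%), 76.9% for Lif (65.8% to 98.5%), 69.8% for Il6 (57.9% to 88.6%), 21.5% for Il6ra (11.1% to 33.3%) and 16.4% for Socs3 (11.5% to 21.2%). For Osmr, which did not pass the filter, it was 89.8% (72.0% to 102%) after T/5z and 97.8% (75.9% to 135%) in T/S/Z cells. On this scale, in both stimuli, Osmr and the ligands that rose lay above Socs3 and Il6ra in every pair.

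Whether Nec-1s acted differently under the stimuli was tested as an interaction, the effect after T/5z minus the effect after T/S/Z. It was called for 3 of 7 members (6.47% of all genes), 2 of them above 0 (3.77%) and 1 below 0 (2.70%). For Osm it was 4.06 ± 0.27 (SE, adjusted p = 3.37e-07), since Nec-1s lowered Osm far more after T/S/Z. For Socs3 it was -0.96 ± 0.11 (adjusted p = 2.77e-05), with the greater lowering after T/5z, and for Il6ra 0.59 ± 0.13 (adjusted p = 0.00555), with the greater gain after T/5z. The Il6ra call was lost without replicate 1 (0.52), without replicate 3 (0.57) and with 5 added before the log (0.32). For Il6 the interaction was -0.33 (95% interval -1.04 to 0.39) and for Lif 0.35 (-0.42 to 1.11), and neither was called. In replicate 4 alone the value was 0.31 for Il6, of the opposite sign, and 1.81 for Lif.

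**Figure D2:**
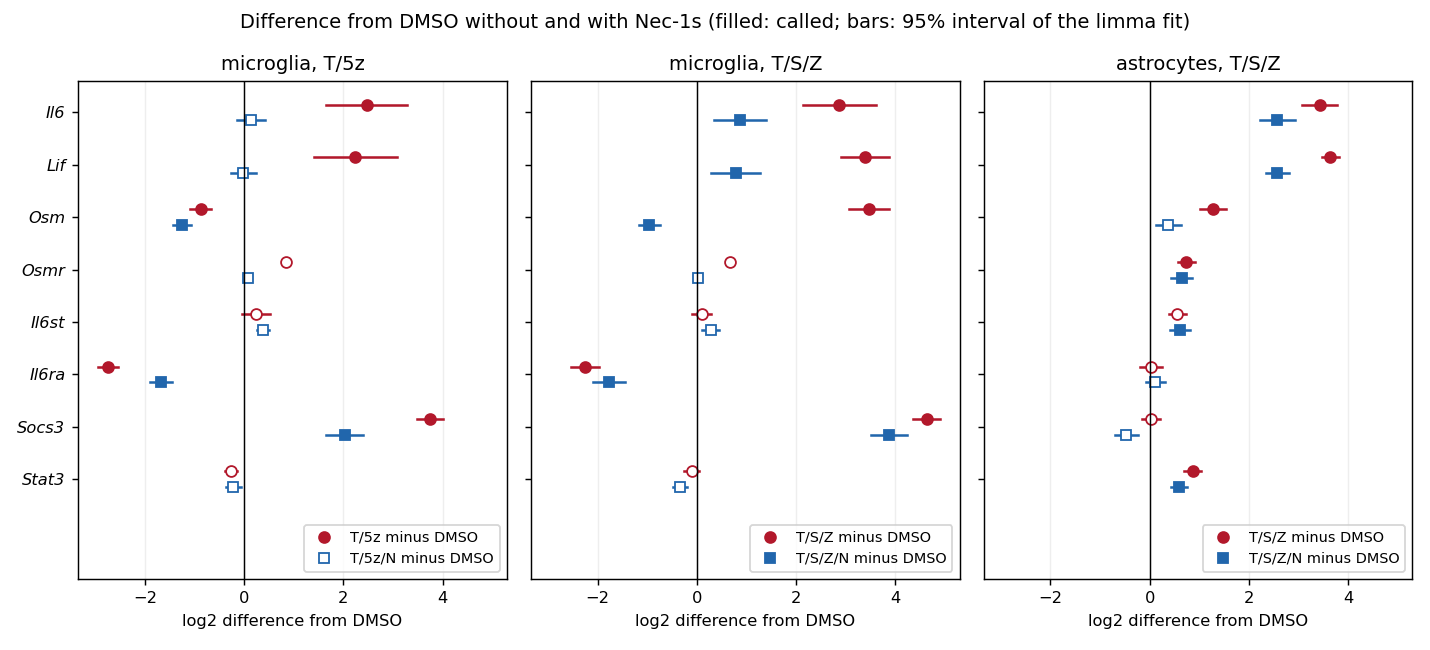
Fitted log2 difference from DMSO without Nec-1s (red circles) and with Nec-1s (blue squares) for the 8 members in 3 settings; bars are 95% intervals, and filled symbols are called. Osmr did not pass the filter in microglia and has no interval there. Il6 and Lif returned close to 0 in T/5z/N, Osm crossed to below 0 in T/S/Z/N, and in astrocytes Socs3 was at 0.03 in T/S/Z.

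All 3 ligands rose in astrocytes given T/S/Z, and Lif reached the highest level. Lif was at 3.57, 3.54 and 3.36 in DMSO, at 7.25, 7.12 and 7.04 with T/S/Z and at 5.98, 6.03 and 6.18 with T/S/Z/N. The groups did not overlap. The rise was 3.65 ± 0.07 (SE, adjusted p = 2.15e-07), from 10.3 ± 0.9 to 140 ± 10 FPKM (SD, n = 3). Nec-1s lowered it by 1.07 on the log2 scale (-1.07 ± 0.10, adjusted p = 0.00161), to 66.0 FPKM, and T/S/Z/N remained above DMSO by 2.58 ± 0.09 (adjusted p = 2.56e-05).

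Il6 was at 0.47, 0.29 and 0.46 in DMSO, at 3.48, 3.92 and 4.12 with T/S/Z and at 2.78, 3.27 and 2.91 with T/S/Z/N, again without overlap. It rose by 3.43 ± 0.15 (SE, adjusted p = 7.41e-06), and Nec-1s changed it by -0.86 ± 0.13 (adjusted p = 0.0125). T/S/Z/N remained 2.58 ± 0.15 above DMSO (adjusted p = 0.000152). The DMSO values rest on about 12 to 20.6 counted units per library and the T/S/Z values on 542.1 to 858.7.

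Osm was close to 0 in DMSO astrocytes, at 0.11, 0.11 and 0.18, which is about 3.9 to 6.9 counted units. It was at 1.52, 1.31 and 1.41 with T/S/Z and at 0.63, 0.42 and 0.48 with T/S/Z/N. The rise was 1.28 ± 0.11 (SE, adjusted p = 0.000176) and the effect of Nec-1s -0.91 ± 0.09 (adjusted p = 0.00268), and with 5 added before the log both were under the fold minimum (0.39 and -0.30). Osm passed the filter on low values only through its T/S/Z libraries, so the group in which it was high selected it for these tests. In DMSO and T/S/Z astrocytes Osm stood at 0.928% and 1.27% of its microglial level. The 10 microglial markers stood at 0.349% to 43.0% (median 1.54%) in DMSO and at 0.177% to 18.7% (median 0.641%) in T/S/Z, with none at 0. Their sum fell from 78.3 to 84.0 FPKM in DMSO to 47.8 to 51.7 in T/S/Z and was 70.3 to 73.9 in T/S/Z/N, opposite in direction to Osm. The part of microglial RNA in the astrocyte values of Osm was not tested.

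Among the receptor chains of astrocytes, Osmr rose with T/S/Z. Osmr was at 5.27, 5.48 and 5.59 in DMSO, at 6.12, 6.17 and 6.26 with T/S/Z and at 6.11, 6.09 and 6.07 with T/S/Z/N. It rose by 0.74 ± 0.07 (SE, adjusted p = 0.000361) and its difference with Nec-1s was -0.09 (95% interval -0.29 to 0.10, not called). Il6st was at 5.97, 5.86 and 6.10 in DMSO, at 6.59, 6.43 and 6.56 with T/S/Z and at 6.59, 6.66 and 6.52 with T/S/Z/N. Its difference from DMSO was 0.56 ± 0.07 (adjusted p = 0.00114) in T/S/Z, just under 1.5-fold, and 0.62 ± 0.09 (adjusted p = 0.00429) in T/S/Z/N, just over it. Il6ra, at 3.33, 3.24 and 3.28 in DMSO and 3.43, 3.35 and 3.14 in T/S/Z, differed by 0.02 (95% interval -0.20 to 0.25).

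Stat3 rose in astrocytes. It was at 5.92, 5.89 and 5.80 in DMSO, at 6.92, 6.70 and 6.59 with T/S/Z and at 6.48, 6.42 and 6.49 with T/S/Z/N. The rise was 0.87 ± 0.07 (SE, adjusted p = 0.000172), and T/S/Z/N remained above DMSO by 0.60 ± 0.07 (adjusted p = 0.00178), a call lost without replicate 3 (0.55) or against Nec-1s alone (0.48). The difference with Nec-1s was -0.27 ± 0.09 (adjusted p = 0.106, not called).

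Socs3 did not move with the ligands in astrocytes. It was at 4.77, 4.52 and 4.46 in DMSO and at 4.83, 4.59 and 4.42 with T/S/Z, so the groups overlapped, and the difference was 0.03 (95% interval -0.15 to 0.21). With T/S/Z/N it was at 4.07, 4.21 and 4.06, below every DMSO and every T/S/Z library. The differences were -0.50 ± 0.11 (SE, adjusted p = 0.0374) from T/S/Z and -0.47 ± 0.09 (adjusted p = 0.0159) from DMSO, both under the 1.5-fold minimum.

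**Figure D3:**
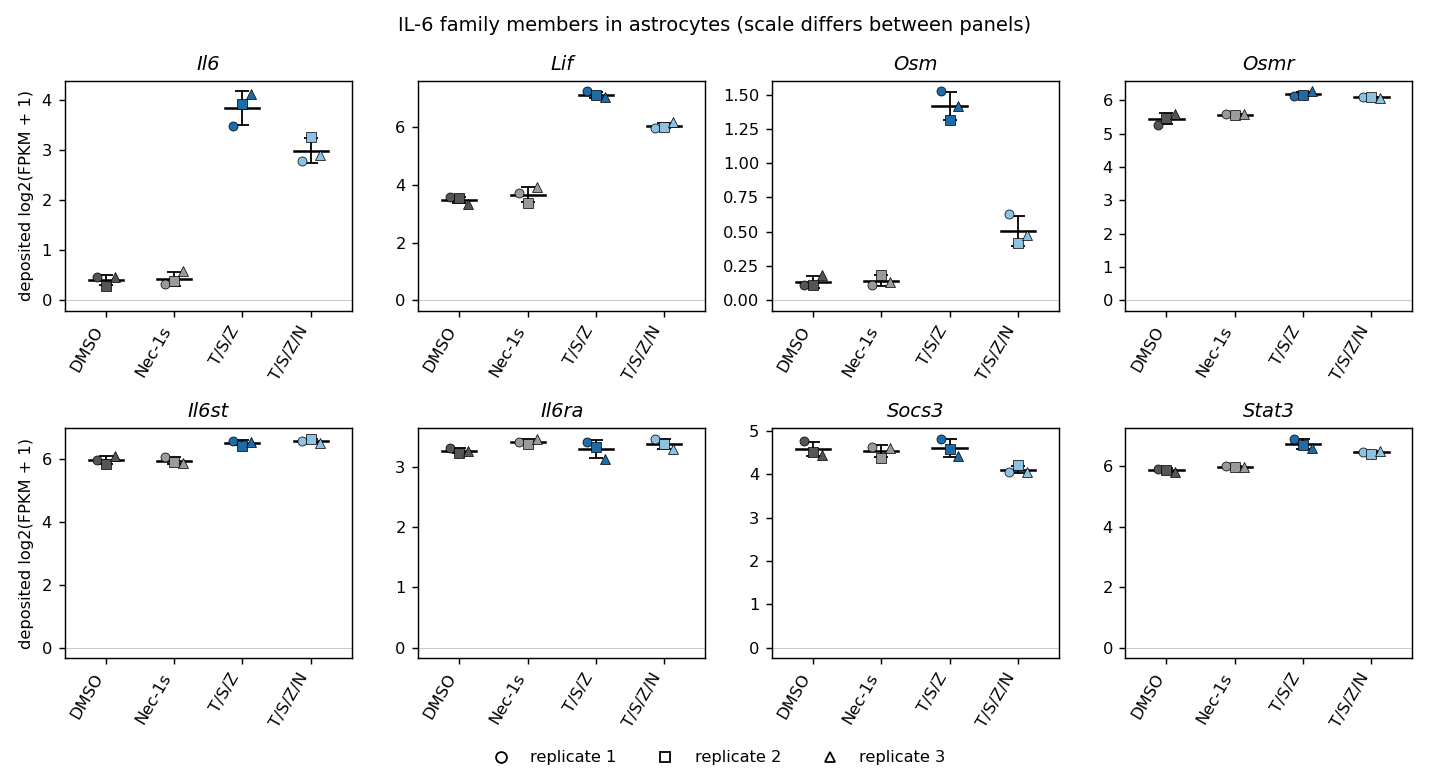
Deposited log2(FPKM + 1) of the 8 members in astrocytes by treatment, 1 point for each of 12 libraries, with the group mean (long bar) and SD (error bar, n = 3). Lif, Il6 and Osm rose with T/S/Z and were lower in T/S/Z/N, Osmr stayed at its T/S/Z level in T/S/Z/N, and Socs3 overlapped between DMSO and T/S/Z.

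By count, 5 of 8 members were called for T/S/Z in astrocytes (15.4% of all 13842 tested genes), all 5 higher (6.39%) and none lower (8.99%), and the median of all tested genes was -0.11 on the log2 scale. Nec-1s changed 3 of 8 (3.10%), the ligands, all 3 lower (1.59%) and none higher (1.51%). In T/S/Z/N, 5 of 8 were called against DMSO (9.08%), namely Il6, Lif, Osmr, Il6st and Stat3, all higher (4.36%) and none lower (4.72%). This was 3 without replicate 2, where Osmr and Il6st lost the call, and 3 with Nec-1s alone as the control, where Osmr and Stat3 did. On the log2 scale, the share of the T/S/Z difference taken back by Nec-1s was 70.9% for Osm (63.3% to 76.1% over 3 pairs), 29.4% for Lif (23.5% to 34.3%) and 24.9% for Il6 (18.0% to 33.3%). For Lif and Il6 these shares were lower than every pair of T/S/Z microglia, although no test compared the cell types, which the labels assign to different sequencing providers while the study's methods name only 1. Such shares depend on the level of a gene, and the levels of Lif and Il6 differed between the tables. In FPKM, group means in DMSO, T/S/Z and T/S/Z/N astrocytes were 10.3, 140 and 66.0 for Lif and 0.33, 13.6 and 7.00 for Il6. Fibroblast and pericyte markers also moved in the astrocyte libraries, from 612 to 626 FPKM summed over 6 of 6 markers in DMSO to 112 to 125 in T/S/Z and 490 to 492 in T/S/Z/N, and their part in the values was not tested.

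Set side by side, the cell types held different parts of the chain at rest. Per kilobase, in DMSO, Osm was at 10.2 FPKM in microglia (replicate 4) and 0.0976 in astrocytes (mean of 3) and Il6ra at 22.8 and 8.73. Lif was at 0.364 and 10.3, Osmr at 0.33 and 42.8, and Il6st at 14.7 and 62.0. The ligand Osm was thus higher in the microglial table and its receptor chain Osmr in the astrocyte table. The tables were normalized separately and used other exon lengths for Osmr, Lif and Il6st, so these ratios were not tested.

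The wider family of ligands was described from a list of 11 genes, which holds the members Il6, Lif and Osm, so its counts and medians include them. In microglia, 4 of 8 tested ligands rose (11.1% of all genes) and 2 fell (13.3%) under T/5z, and 5 rose (12.2%) and none fell (17.5%) under T/S/Z. Il27, which pairs with Ebi3 to form IL-27, rose by 2.30 under T/5z and by 1.82 under T/S/Z. Ebi3 rose by 1.53 under T/5z, and its T/S/Z difference of 0.48 was not called. Clcf1, a ligand of the ciliary neurotrophic factor receptor, rose by 1.88 with T/S/Z. Il11 fell by 0.84 with T/5z (-0.84, adjusted p = 0.000546). Nec-1s lowered 7 of 8 after T/5z (4.52% of all genes) and 6 of 8 after T/S/Z (6.72%), and raised none. The median over the 8 was 1.04 (T/5z) and 1.85 (T/S/Z), against -0.06 and -0.08 over all genes, and -0.99 and -1.79 for Nec-1s, against 0.04 and 0.06. In astrocytes 5 of 8 rose with T/S/Z (6.39% of all genes; median 1.12 against -0.11), among them Il11 by 2.29 and Clcf1 by 0.95, and Nec-1s lowered 4 of 8 (1.59% of all genes), Lif, Osm, Il6 and Il11.

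Receptors and the proteases that shed them made a list of 9 genes, of which 6 were tested in microglia and 8 in astrocytes. With T/5z, 1 of 6 rose (11.1% of all genes) and 2 fell (13.3%). Adam17, a sheddase of IL-6 receptor, rose by 0.71, while Il6ra and Adam10, another sheddase, fell, Adam10 by 0.68 (-0.68, adjusted p = 5.74e-05). With T/S/Z 3 of 6 fell (17.5% of all genes), Il6ra, Adam10 (-0.70) and Il11ra1, the receptor of IL-11 (-0.63), and none rose (12.2%). Nec-1s raised Il6ra after T/5z and by limma called 0 of the 6 after T/S/Z (12.1% of all genes), where 3 had an unadjusted p under 0.05. The medians were -0.39 (T/5z) and -0.60 (T/S/Z), against -0.06 and -0.08 over all genes. In astrocytes Osmr rose and Adam10 fell (-0.64, adjusted p = 0.000532), and 0 of 8 were called for Nec-1s (3.10% of all genes), with 2 at an unadjusted p under 0.05.

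Among 10 JAK kinases, STAT factors and adaptors, Jak2 rose in microglia by 1.62 (T/5z) and 1.27 (T/S/Z), and Tyk2 by 1.22 with T/5z. Gab1, an adaptor that links gp130 to other pathways, fell in both (-1.26 and -1.06). By limma, 0 of 10 were called for Nec-1s after either stimulus, near the shares of all genes called (7.16% for T/5z, 12.1% for T/S/Z), although 6 of 10 after T/5z and 7 of 10 after T/S/Z had an unadjusted p under 0.05, with differences under 1.5-fold where the adjusted p passed. The interaction was called for Jak2 (-0.65) and Stat5a (-0.68) of the 10 (6.47% of all genes). Jak2, Tyk2 and Gab1 were called in the same directions in T/5z/N and in T/S/Z/N relative to DMSO. In astrocytes Stat5a rose by 1.80 and Stat3 as above, Gab1 fell, and Nec-1s lowered Stat5a (-0.68, adjusted p = 0.0104) alone of the 10 (1.59% of all genes). The medians were 0.40 (T/5z), 0.16 (T/S/Z) and 0.30 (astrocytes), against -0.06, -0.08 and -0.11 over all genes.

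Of 9 inhibitors of the pathway, 3 of 8 tested rose in microglia with T/5z (11.1% of all genes), namely Socs3, Socs1 by 1.25 and Ptpn2 by 0.65. With T/S/Z 4 of 8 rose (12.2%), namely Socs3, Cish by 1.0, Socs1 by 0.91 and Ptpn2 by 0.84, and none fell under either stimulus (13.3% and 17.5% of all genes). Nec-1s lowered 2 of 8 after T/5z (4.52%), Socs3 and Socs1 (-0.80), and 2 of 8 after T/S/Z (6.72%), Socs3 and Cish (-0.88). In astrocytes, where Socs3 was level, Socs1 rose by 1.20, Ptpn2 by 1.0 and Cish by 0.71, and Nec-1s lowered Socs1 (-0.78, adjusted p = 0.0317). The phosphatase Ptpn1, called in neither stimulus against DMSO, was lower in T/S/Z than in T/5z (-1.0, adjusted p = 1.93e-05).

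Known STAT3 targets made a list of 20 genes. In microglia 12 of 18 tested rose (11.1% of all genes) and 2 fell (13.3%) with T/5z (median 0.78), and 14 rose (12.2%) and none fell (17.5%) with T/S/Z (median 1.04). After Socs3 the greatest rises were those of Pim1, a survival kinase, by 2.42 and 2.84, Bcl3, a nuclear NF-kB cofactor, by 2.05 with T/5z, and Myc by 2.01 with T/S/Z. Nec-1s lowered 9 of 18 after T/5z (4.52% of all genes; median -0.61), led after Socs3 by Lcn2, an iron-carrying acute-phase protein (-1.52), and Timp1, an inhibitor of metalloproteases (-0.87). After T/S/Z it lowered 11 of 18 (6.72%) and raised 1, Bcl3 (5.35%; median -0.75), led by the survival gene Bcl2l1 (-1.71), Myc (-1.66) and Lcn2 (-1.61). The list holds Gfap, which is also among the astrocyte markers that moved in these libraries, and many of its genes are also targets of NF-kB. In astrocytes 11 of 19 rose (6.39% of all genes) and none fell (8.99%) with T/S/Z (median 0.93), led by Lcn2 by 5.06, Steap4, a metalloreductase, by 3.57, and Junb, an AP-1 subunit, by 3.15. Nec-1s lowered 4 of 19 (1.59% of all genes), among them Lcn2 (-1.38) and Myc (-0.82), and raised Saa3, an acute-phase gene, by 2.13 (adjusted p = 6.87e-05) above a level that T/S/Z had already raised by 1.96.

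Of 9 regulators of Il6 transcription or mRNA decay, 5 rose (11.1% of all genes) and 1 fell (13.3%) in microglia with T/5z (median 0.70), and 6 rose (12.2%) and none fell (17.5%) with T/S/Z (median 1.01). Nfkb1, an NF-kB subunit, rose by 1.84 and 1.85, and Zfp36, whose product destabilizes cytokine mRNA, rose by 2.46 with T/S/Z. Nfkbiz, a nuclear cofactor needed for Il6 transcription, rose by 2.04 with T/S/Z. Nec-1s lowered 3 of 9 after each stimulus (4.52% of all genes for T/5z, 6.72% for T/S/Z), namely Nfkbiz, Zc3h12a, an RNase that degrades Il6 mRNA, and Cebpd after T/5z (-1.14, -1.04 and -0.83), and Nfkbiz, Zc3h12a and Zfp36 after T/S/Z (-2.43, -2.22 and -2.08). In the interaction 4 of 9 were called (6.47% of all genes). Zfp36 (1.86), Nfkbiz (1.29) and Zc3h12a (1.17) were called with the greater effect of Nec-1s after T/S/Z, and Cebpd (-1.08) was called in the other direction. In astrocytes 8 of 9 rose with T/S/Z (6.39% of all genes, median 1.54), led by Nfkbiz by 3.02, Zc3h12a by 2.43 and Nfkb1 by 2.24, and Nec-1s lowered 4 (1.59% of all genes), Nfkbiz (-1.40), Zc3h12a (-1.13), Cebpd (-0.76) and Rela.

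**Figure D4:**
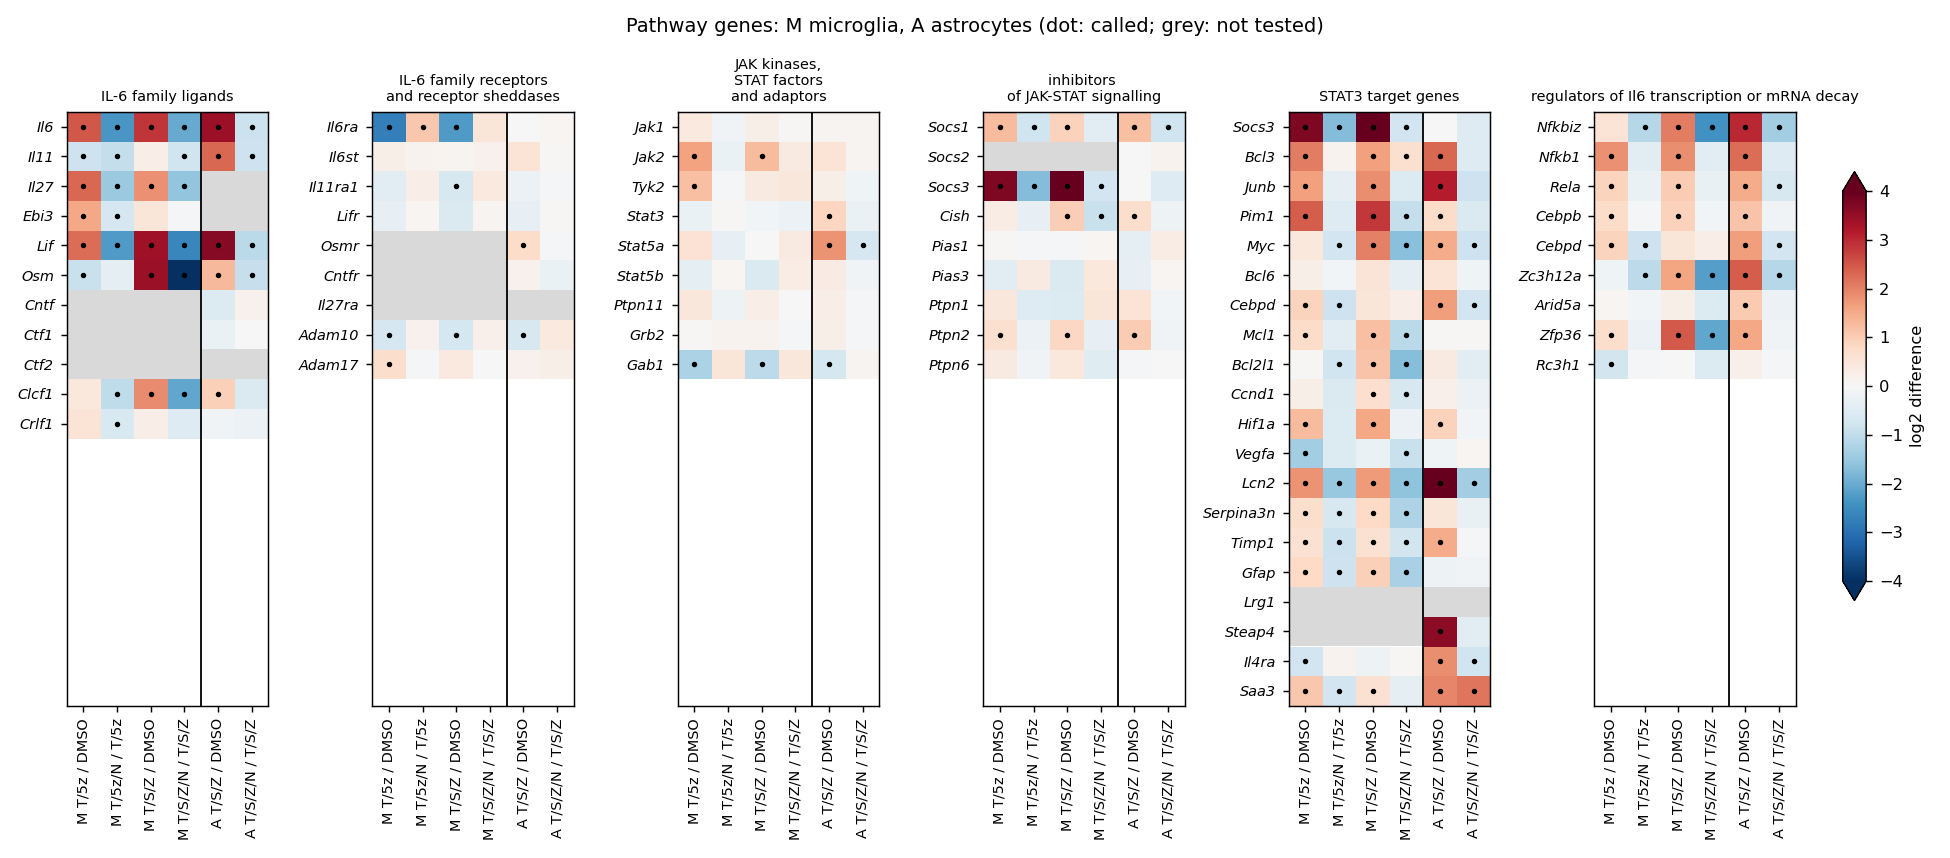
Fitted log2 differences of the genes of the 6 pathway lists (colour, limited to -4 and 4) in 4 microglial (M) and 2 astrocyte (A) comparisons; dots mark called genes and grey cells genes not tested, and 1 listed gene is not drawn. With T/S/Z in microglia 5 of 8 ligands and 14 of 18 STAT3 targets rose (12.2% of all tested genes), and Nec-1s lowered Nfkbiz and Zc3h12a in both cell types.

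The genes whose values were most like those of 4 members over all libraries of a table are given as a description. Over 24 microglial libraries Il6 was closest to Lif (Pearson r = 0.98), then to Mmp10 (0.95) and Itgav (0.95), and Lif to Il6, Ereg (0.97) and Mphosph6 (0.96). Osm was closest to Mafk (0.98), Mid1ip1 (0.98) and Klf6 (0.98), and Socs3 to Ppfibp1 (1.00), Slc7a11 (0.99) and Adgrl2 (0.99). Over 12 astrocyte libraries Il6 was closest to Cd83 (1.00), Sele (0.99) and Tslp (0.99), Lif to Noct (1.00), Akap2 (1.00) and Tgif1 (1.00), Osm to Il1b (0.99), Csf3 (0.99) and Ifi202b (0.99), and Socs3 to Lmna (0.98), Efemp2 (0.96) and Man2b2 (0.96). Lif was the gene nearest to Il6 among 10523 others in microglia but not among the nearest 3 in astrocytes. The libraries of a table share treatments and normalization, and in microglia the shift of replicates 1 to 3, so these coefficients are high for many genes.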

How the data were processed

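RNA of mouse microglia (24 libraries, 6 treatments) and astrocytes (12 libraries, 4 treatments) was sequenced after 4 h of treatment. Per the labels, microglial libraries were made by Genewiz and astrocyte libraries by BGI with a strand-specific protocol, while the study's methods name BGI for both. The labels were followed, so cell type and provider cannot be told apart, and no test crossed the tables. Alignment, quantification and normalization were done by the authors with OmicSoft Array Studio (10.1.1.3), and the deposited tables hold log2 values of FPKM with 1 added. The 75th percentile lay between 4.11 and 4.16 in microglial and between 4.73 and 4.74 in astrocyte libraries. In microglia the mean of each gene over treatments in replicates 1 to 3 equalled that of replicate 4 within 6.67e-05, an adjustment not given in the sources used here, which left 187 to 1438 negative values in each library of those replicates. The largest such difference in astrocytes was 5.16.

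Depth was estimated from the steps of low values, which follow the worth of 1 counted unit (read or fragment) at a gene's exon length. At the median, 67.6% of low values in replicate 4 of microglia and 77.2% in astrocytes lay within 0.1 of a whole multiple, so counts were not recovered. In 4 of 12 astrocyte libraries a step up to 3 times smaller scored slightly better, so these depths may be larger.

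Genes were tested when their log2 value was at least 1 in 4 (microglia) or 3 (astrocytes) libraries, which kept 10524 of 15385 and 13842 of 14551 genes. Il6 and Lif in microglia reached 1 only in T/5z and T/S/Z libraries, and Osm in astrocytes only in T/S/Z libraries. They were thus tested because of the groups in which they were high, and their calls enter the counts. Groups were compared with limma (version 3.58.1, R 4.3.3), lmFit and eBayes with trend, 2-sided, on the libraries of the compared groups, blocking on replicate number, after the paired test in the study's methods. Adjusted p-values are Benjamini-Hochberg values over all tested genes. A call needs a fold over 1.5 and an adjusted p under 0.05. Because 1 was added before the log, fold changes of low genes are understated. For marker sums and levels set across tables, negative values were set to 0. Tested on simulated data, the fit recovered 97% of genes changed by 1 on the log2 scale among 10524 genes for T/S/Z against DMSO in microglia, and 82% among 13842 genes in astrocytes. The alternatives were no replicate block, 5 added before the log, no filter, other scaling, eBayes without trend, all groups in one fit, Nec-1s as the control and each replicate left out.

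The 8 members were looked at in every comparison, and some differences that were not called are not printed. From each pathway list, up to 3 called genes with the largest difference were named, and for Il6, Lif, Osm and Socs3 the 3 genes of highest Pearson r. Other genes in counts were named after their values were seen, and 1 gene of the JAK and STAT list is counted but not reported here. The members and lists were chosen with earlier results of these data known. All lists but that of the regulators of Il6 also hold members. Coordinates are those of the deposited annotation, whose member starts equal those of GENCODE M21 for 8 of 8 members in both tables. Promoter sequences are from RefSeq (GRCm38.p6), which gave 7 of the 8 members. RefSeq starts of Lif, Socs3 and Osmr differ from the deposited ones.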

Additional observations from a re-analysis of the deposited data

Results flagged for a closer look

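The effect of Nec-1s in microglia differed between stimuli by an interaction test for 4 members. The effect after T/5z minus that after T/S/Z was 4.06 for Osm, 0.59 for Il6ra, -0.96 for Socs3 and 0.29 for Stat3 (adjusted p = 0.00148, under the 1.5-fold minimum).

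Relative to vehicle, 4 members had differences of opposite sign in T/S/Z/N microglia and T/S/Z/N astrocytes in every library, and the difference between cell types was not tested. Osm was lower in microglia (-0.96) and higher in astrocytes (0.37, under the fold minimum). Il6ra was lower in microglia (-1.77), with 0.11 (adjusted p = 0.343, not called) in astrocytes, where it was -0.0372 against Nec-1s alone. Socs3 was higher in microglia (3.88) and had a difference of -0.47 in astrocytes, under the fold minimum. Stat3 had -0.35 in microglia, under the fold minimum, and was higher in astrocytes (0.60).

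Of 48 groups of 4 microglial libraries checked, 3 held 1 library apart from the others, where chance gives about 1 in 20. Osm was at 3.68 in replicate 2 of DMSO, with the other 3 between 3.46 and 3.49. Osmr was at 0.0784 in replicate 1 of Nec-1s, with the other 3 between 0.26 and 0.30. Stat3 was at 5.01 in replicate 3 of DMSO, with the other 3 between 5.17 and 5.19.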

How the results depend on the processing

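Over 14 comparisons, the calls of members kept their direction and side of the threshold in 1052 of the recomputed differences. They were lost in 25, gained in 3 and changed sign in 25, all of the last for members not called in the fits with all libraries. The cause was not tested. The number of members called for T/S/Z/N against DMSO in microglia fell from 5 to 3 with 5 added before the log and in replicate 4 alone (chosen after seeing the data, by fold with no test), with 3 to 5 when 1 replicate was left out. For T/S/Z/N against T/5z/N it fell from 3 to 1 in the same settings, with 1 to 3 when 1 replicate was left out, and Il6 had an adjusted p of 0.104 with all groups in one fit. For T/S/Z/N against DMSO in astrocytes it fell from 5 to 3 with Nec-1s alone as the control, and was 3 to 4 when 1 replicate was left out.

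Signs changed as follows. With median centring, Stat3 was -0.0038 for T/5z/N against T/5z and Lif 0.0053 for T/5z/N against DMSO in microglia. With 5 added before the log, Il6 was -0.0049 for T/5z/N against DMSO and 0.1061 in the interaction. With Nec-1s as the control, Lif was 0.0531 for T/5z/N in microglia and Il6ra -0.0372 for T/S/Z/N in astrocytes. With quantile normalization, Nec-1s against DMSO gave 0.0385 for Il6 and -0.0017 for Stat3 in microglia. Leaving out 1 replicate gave, in microglia, -0.0723 to 0.0335 for Lif in T/5z/N against DMSO, -0.025 to 0.0814 for Il6st and -0.0073 to 0.0144 for Stat3 in Nec-1s against DMSO, and -0.141 to 0.723 for Lif and -0.0902 to 0.0128 for Il6st in the interaction. In astrocytes it gave -0.0181 to 0.1046 for Il6ra in T/S/Z against DMSO and -0.0216 to 0.1134 for Il6st in T/S/Z/N against T/S/Z. For Nec-1s against DMSO it gave -0.0252 to 0.115 for Il6, -0.0067 to 0.3524 for Lif, -0.0231 to 0.0385 for Osm, -0.0889 to 0.0779 for Il6st and -0.1301 to 0.0082 for Socs3.

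The deviations of same-numbered libraries had correlations of -0.144 to 0.411 (median 0.041) in astrocytes, where the numbers were not shown to pair the libraries. In microglia they were -0.458 to 0.257 (median -0.249), but the shift of replicates 1 to 3 makes the deviations of a number sum to nearly 0, so this check cannot show whether the numbers pair the libraries. No member's call changed without the replicate block, where 5 of 7 members were called for T/5z and the Il6 difference was 2.47 (adjusted p = 1.21e-05). In microglia the shift had already made the replicate means of each gene equal over the treatments. Leaving out the block is therefore no check of the pairing there. Depth limits Il6 in vehicle microglia and Osm in vehicle astrocytes, which rest on few counted units.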
